A study of Homo sapiens with 6 samples.

Results

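GADD45A, GADD45B, GADD45G, BTG1, BTG2, BTG3, TOB1 and TOB2 are 8 genes of 3 small families whose proteins slow or stop cell growth, and their RNA was followed in K562 cells deprived of iron. Members were taken by gene symbol: all transcripts that the annotation assigned to these symbols were summed, giving 8 genes of the 62252 with a transcript in the data and 33 annotated transcripts. K562, the only cell line used, is an erythroid leukemia line. The 3 libraries of the Chelator group came from cells treated overnight with 10 µM 21H7, a cell-permeable iron chelator, and the 3 libraries of the DMSO group from cells given an equal volume of the solvent alone, both in culture medium with serum. The labels name no genetic change in either group. PolyA-selected RNA was sequenced in pairs of reads. Nothing in the labels says whether libraries of a group came from separate cultures, so p-values measure the spread between these libraries, which may be technical.

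GADD45 proteins are small acidic proteins with no enzymatic activity that are made when cells are stressed. They bind cyclin-dependent kinase CDK1 with cyclin B1, the replication clamp PCNA and the inhibitor p21, and they open the kinase MAP3K4, which starts signaling through p38 and JNK. BTG and TOB proteins share an N-terminal domain that grips the CNOT7 and CNOT8 subunits of the CCR4-NOT complex, the enzyme that shortens poly(A) tails, and overproduction of either kind holds cells back from dividing. BTG1 and BTG2 keep lymphocytes resting, and BTG2 is a classic early response gene of blood cells.

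Depth ranged from 78.6 to 90.4 M estimated counts in the DMSO libraries (M, 1e+06) and from 85.4 to 101 M in the Chelator libraries. The erythroid identity of the cells was visible in all 9 erythroid markers, whose summed level was 12381 to 13725 TPM (transcript abundance scaled by length and library depth) in DMSO and 17519 to 18708 TPM in Chelator, most of it globin RNA. Of these 9 markers 5 rose, the 4 globin genes and ALAS2, and 2 fell, the erythroid transcription factor genes KLF1 (log2 fold change -0.72, DESeq2 adjusted p = 4.59e-23) and TAL1 (-0.28, adjusted p = 0.000384). Over all genes, 19.5% rose and 18.3% fell at an adjusted p under 0.05. With libraries centred on the mean log2 change of all genes, 2 rose (HBE1 and ALAS2) and 3 fell, GATA1 with KLF1 and TAL1. Under that centring 11.9% of all genes rose and 26.8% fell. Summed TPM of markers of other cells was higher in Chelator too: 11.8 to 17.8 against 42.4 to 44.3 for 5 lymphocyte markers (mostly CD3D), 11.4 to 12.1 against 19.0 to 20.8 for 4 monocyte and granulocyte markers (mostly LYZ), 2.71 to 3.38 against 3.44 to 3.90 for 3 fibroblast markers and 341 to 392 against 898 to 1029 for the epithelial pair EPCAM and KRT8. Within these last lists KRT8 and COL1A1 rose, while EPCAM (-0.48, adjusted p = 1.63e-07) and COL1A2 (-0.48, adjusted p = 0.0026) fell. The B cell marker MS4A1 and the neutrophil marker ELANE were listed at 0 in every library. MPO, in the same list as ELANE, rose from 0.0049 to 1.25 TPM (log2 fold change 8.03, DESeq2 adjusted p = 1.02e-12). A library of each group stood apart from its replicates: the chi-square per gene between libraries was 63.5 and 44.3 for DMSO replicate 2 against the other DMSO libraries, which differed by 8.52, and 29.9 and 28.1 for Chelator replicate 1 against the others, which differed by 6.54. The fragment length, read from the gap between length and effective length of transcripts without counts, was 252 to 264 bases in DMSO and 200 to 218 bases in Chelator, so it cannot be told apart from the treatment. Results without each library that stood apart are given below. The part of the marker and fragment length differences in the results was not tested. In bulk RNA fewer cells of a type and less RNA per cell cannot be told apart.

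The members are compact genes. Positions are on GRCh38, from GENCODE release 44. GADD45A lies on the plus strand at chr1:67685201-67688334, GADD45B on the plus strand at chr19:2476122-2478259 and GADD45G on the plus strand at chr9:89605012-89606555, and the main transcript of each has 4 exons. BTG1 (minus strand, chr12:92140278-92145846), BTG2 (plus strand, chr1:203305491-203309602), TOB1 (minus strand, chr17:50862223-50867978) and TOB2 (minus strand, chr22:41433494-41446801) have main transcripts of 2 exons, whereas BTG3 (minus strand, chr21:17593653-17612945) has 5. Among 11469 protein-coding genes that averaged at least 100 normalized counts, the median was 9 exons. Coding sequences ran from 477 bases in BTG2 to 1038 bases in TOB1, below the median of 1398 bases for all 8 members. Lengths of the 3′ untranslated region spread more widely, from 440 bases in BTG3 to 3802 bases in BTG1, against a median of 1310 bases. The pentamer ATTTA, the core of AU-rich elements, was found 5 times in that region of BTG1, 4 times in TOB1, 2 times in BTG2 and GADD45A and at no position in GADD45B and GADD45G, where the compared genes had a median of 2.

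Promoter windows reaching from 250 bases before to 50 bases after the start site were read from RefSeq (GRCh38.p14) for 7 of the 8 members, all but GADD45A, and TOB1 had 2 start sites. Motifs searched on both strands were TATAAA (found in 11.5% of 35116 promoter windows), CCAAT (34.6%), TGACG, the core of the cAMP response element (24.6%), ACGTG, the core of the hypoxia response element (21.4%), TGANTCA, the AP-1 site (7.71%), and TGATGNAA, the C/EBP-ATF element (3.62%). ACGTG overlaps itself on the other strand wherever it stands in CACGTG, the E-box. Stretches around matches in BTG1, BTG2 and GADD45B are shown because these are the 3 members with the clearest change in RNA, each written 5′ to 3′ along the gene with the motif in capitals:
BTG1 TATA box, first base 33 bases before the start, chr12:92145862-92145891: ttttcgtggcacTATAAAgggtgctgcacg
BTG1 TGACG on the other strand, 110 bases before the start, chr12:92145940-92145969: ccgaaccggcttgCGTCAcaatggtgcgat
BTG1 TGACG on the other strand, 192 bases before the start, chr12:92146022-92146051: tacaagcggattaCGTCAgctcctccctct
BTG2 CCAAT box, 76 bases before the start, chr1:203305430-203305459: cctctggccgcgaCCAATgagcgccgccgc
BTG2 TGACG, 210 bases before the start, chr1:203305296-203305325: aggttcctagcacTGACGacagcgagcgat
GADD45B TATA box, 31 bases before the start, chr19:2476084-2476113: aatgttcaagtcTATAAAagtcggtgccgg
GADD45B ACGTG within an E-box, 167 bases before the start, chr19:2475947-2475976: ggttctcgcccccACGTGgggcgcccccgc
TGACG was found in the windows of BTG1, BTG2 and TOB1 (87 bases before its second start site), and a TATA box in those of BTG1 and GADD45B. CCAAT was found in BTG1, BTG2, GADD45B, GADD45G and TOB1, and ACGTG in GADD45B and GADD45G, so members that rose, fell or did not pass shared these letters. The C/EBP-ATF element was found in GADD45G alone, 102 bases before the start, and the AP-1 site in no window. No searched motif was found in the windows of BTG3 and TOB2. These matches are letters in a window and not evidence of binding.

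BTG2 had the largest rise, GADD45B rose from a very low level, and BTG1 and GADD45A rose by less. TOB1 and TOB2 fell slightly, and BTG3 and GADD45G did not pass the test. A gene was called when DESeq2's Wald test gave a Benjamini-Hochberg adjusted p under 0.05 together with an absolute log2 fold change above 1, and all 8 members had totals above the minimum of 10 counts. By this rule 3 of the 8 were called, all higher in Chelator, where 8.18% of the 24542 genes with an adjusted p were called higher. At any fold, 4 of 8 members passed with a rise (19.5% of genes) and 2 of 8 with a fall (18.3% of genes). Without DMSO replicate 2 or Chelator replicate 1, the libraries that stood apart, these counts were again 3, 4 and 2, but the falls numbered 0 without DMSO replicate 3, without Chelator replicate 2 and in edgeR's quasi-likelihood test, and 1 without Chelator replicate 3. Normalized counts of the groups did not overlap for 7 of the 8 members, against 47.3% of the 26074 genes tested.

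**Figure D1:**
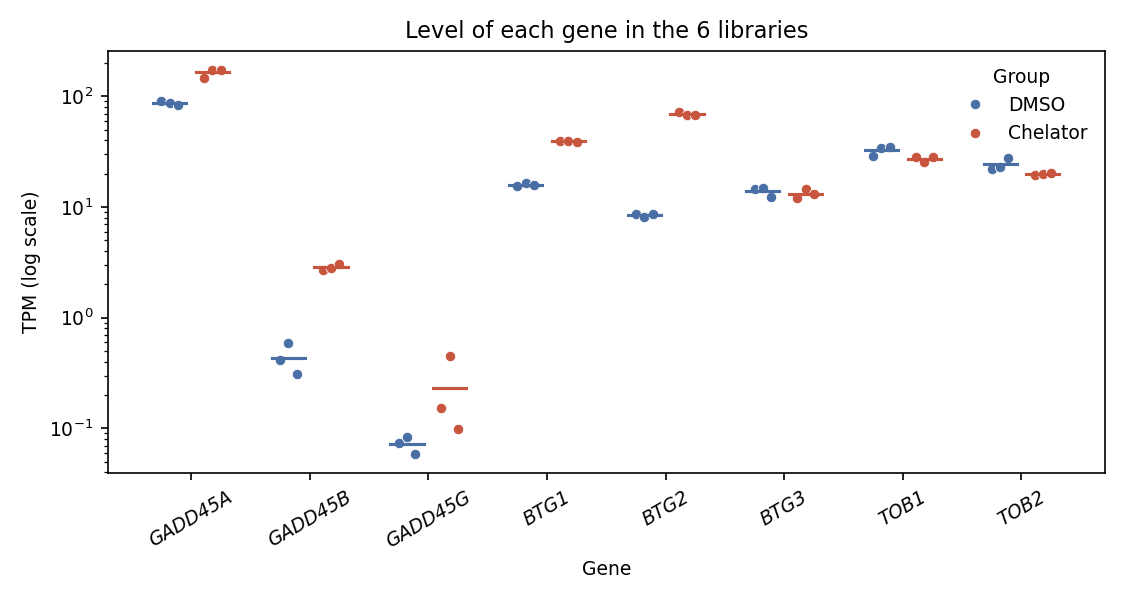
TPM (log axis) of each of the 8 genes, with a point for each library and a bar at the mean of each group of 3. Chelator points lie above all DMSO points for GADD45A, GADD45B, GADD45G, BTG1 and BTG2, intermingle for BTG3, and lie below for TOB1 and TOB2 by a small margin.

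Levels were compared between genes in TPM, which is scaled by transcript length. In DMSO the order from high to low was GADD45A (mean 87.5 TPM), TOB1 (32.5), TOB2 (24.3), BTG1 (15.9), BTG3 (13.8), BTG2 (8.49), GADD45B (0.437) and GADD45G (0.0717). In Chelator it was GADD45A (165 TPM), BTG2 (69.1), BTG1 (39.3), TOB1 (27.4), TOB2 (19.8), BTG3 (13.2), GADD45B (2.85) and GADD45G (0.233). The ranges of neighbouring genes did not overlap at any step of either order. BTG2 thus moved from rank 6 in DMSO to rank 2 in Chelator, and GADD45A stayed the most abundant of the 8 in both. These levels sum all transcripts of a gene, and most BTG1 TPM was assigned to BTG1-203, which has no defined coding sequence. The place of BTG1 depends on that assignment. In DMSO its coding transcript BTG1-201 averaged 3.51 TPM, below the main coding transcripts BTG3-202 (10.3) and BTG2-201 (7.24). In Chelator BTG1-201 averaged 10.6 TPM, beside 9.92 for BTG3-202 and 65.1 for BTG2-201.

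Among the BTG genes, BTG2 codes for a short-lived protein that recruits the deadenylase to mRNA. It was present at 8.67, 8.09 and 8.70 TPM in the DMSO libraries and at 71.7, 67.5 and 68.0 TPM in the Chelator libraries. Every Chelator library was far above every DMSO library, and the replicates of a group lay close together. Normalized counts averaged 1563 ± 203 (SD, n = 3) in DMSO and 12404 ± 762 (SD, n = 3) in Chelator, a 7.94-fold rise (95% interval 6.93 to 9.10, log2 fold change 2.99, SE 0.10, adjusted p = 6.11e-192 by DESeq2). Of 10341 genes averaging at least 500 normalized counts, BTG2 ranked 37 by log2 fold change and 21 by p-value.

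BTG1, the closest relative of BTG2 and a gene often altered in B cell cancers, had 15.6, 16.3 and 15.9 TPM in DMSO and 39.7, 39.9 and 38.4 TPM in Chelator. The groups were well apart, with little spread within either. Its normalized count went from 1993 ± 141 to 4811 ± 164 (SD, n = 3 each), a 2.41-fold rise (95% interval 2.15 to 2.71, log2 fold change 1.27, SE 0.08, DESeq2 adjusted p = 5.3e-49). With libraries centred on the mean log2 change of all genes, which moves the median gene by -0.21, the log2 fold change was 1.06. Under that centring the 2646 calls over all genes, 2007 higher and 639 lower, became 1534 higher and 1231 lower.

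BTG3, a more distant relative that binds the transcription factor E2F1, had 14.5, 14.8 and 12.2 TPM in DMSO and 12.1, 14.5 and 13.1 TPM in Chelator. These values intermingle. On the log2 scale the change was -0.09 (SE 0.12, DESeq2 adjusted p = 0.596), with an interval of 0.797 to 1.102 for the fold. Only under the centring did it pass, at a log2 fold change of -0.31 (adjusted p = 0.0492). As a caution on this gene, 13.1% of its 31-base words also occur in expressed transcripts of other genes, among them the antisense gene BTG3-AS1.

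BTG4, the oocyte member of the family, was at the limit of detection at 0.0045 TPM in DMSO and 0.0100 TPM in Chelator and was not tested. The summed level of BTG1, BTG2 and BTG3 went from 38.2 ± 1.29 TPM to 122 ± 1.98 TPM (SD, n = 3). BTG2 supplied 22.2% ± 1.52 of that sum in DMSO and 56.8% ± 1.31 in Chelator, whereas BTG3 went from 36.1% ± 2.53 to 10.9% ± 1.02. The sum and these shares include BTG1-203, the transcript without a defined coding sequence that held most of BTG1.

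**Figure D2:**
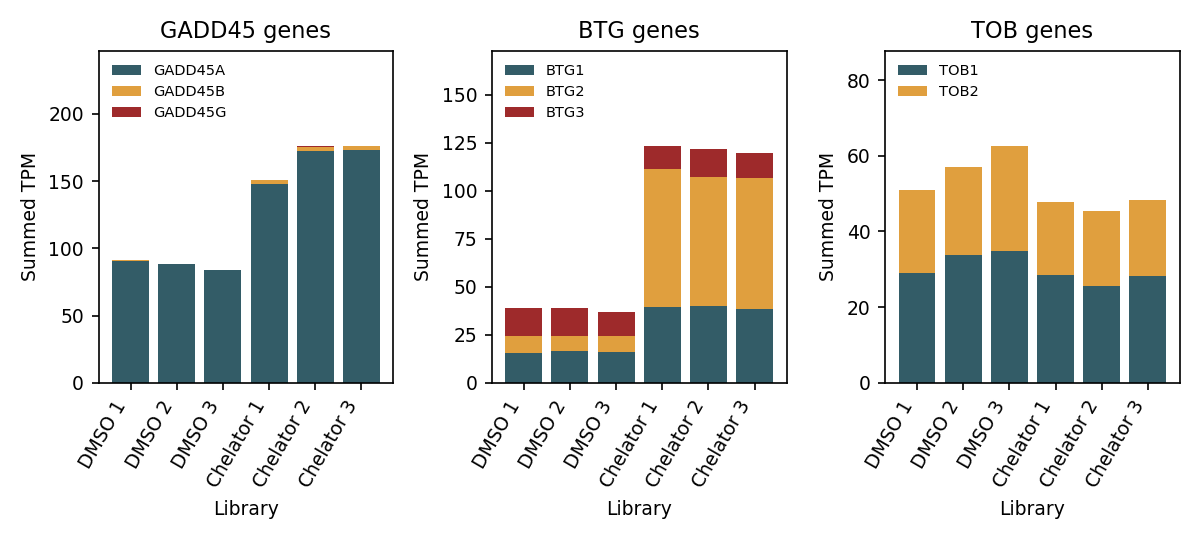
Summed TPM (linear axis from 0) of the GADD45, BTG and TOB genes in each library, with a colored segment for each gene. The BTG bars stand at 36.8 to 39.2 TPM in DMSO and 120 to 124 TPM in Chelator, with BTG2 as the segment that widens, and GADD45A makes up nearly all of the GADD45 bars.

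Among the GADD45 genes, GADD45A is the founding member, induced by DNA damage and by other stress. It had 90.7, 88.0 and 83.7 TPM in DMSO and 148, 173 and 173 TPM in Chelator. All Chelator values were higher, with the first Chelator library below the other two. The normalized count rose from 7277 ± 730 to 13356 ± 868 (SD, n = 3), or 1.84-fold (95% interval 1.62 to 2.07, log2 fold change 0.88, SE 0.09, DESeq2 adjusted p = 8.63e-21). This stayed below the fold threshold of the call in each of the 15 alternative settings, between 0.66 and 0.95.

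GADD45B, which is induced by TGF-beta and NF-kappaB signaling and feeds into the p38 and JNK kinases, was nearly silent in DMSO, at estimated counts of 42, 40 and 27. In Chelator the estimated counts were 260, 315 and 281. In TPM these were 0.414, 0.585 and 0.311 against 2.68, 2.83 and 3.05, so that the lowest Chelator value was well above the highest DMSO value. DESeq2 gave a 6.497-fold rise (95% interval 4.53 to 9.31, log2 fold change 2.70, SE 0.26, adjusted p = 7.31e-23). GADD45B made up only 0.495% ± 0.149 of the family's TPM in DMSO and 1.70% ± 0.0851 in Chelator.

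GADD45G, a gene of developing tissues that is often silenced in cancer lines, was barely detected, with estimated counts of 5, 3 and 4 in DMSO and 13, 40 and 8 in Chelator. A single Chelator library held most of the counts. The log2 fold change was 1.67 (SE 0.95, DESeq2 adjusted p = 0.164) with an interval from 0.876-fold to 11.6-fold, and it was 0.81 without Chelator replicate 2. Without the length offset the adjusted p was 0.047. At this depth a change of GADD45G was not settled in either direction.

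TOB1 and TOB2 carry the same N-terminal domain as the BTG proteins and a tail that binds the poly(A)-binding protein PABPC1. TOB1 had 28.98, 33.8 and 34.7 TPM in DMSO and 28.4, 25.6 and 28.2 TPM in Chelator. The highest Chelator value lay just under the lowest DMSO value. The normalized count fell from 4005 ± 413 to 3310 ± 275 (SD, n = 3), to 0.827 of the DMSO level (95% interval 0.721 to 0.947, log2 fold change -0.27, SE 0.10, DESeq2 adjusted p = 0.0188).

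TOB2 had 21.9, 23.1 and 28.0 TPM in DMSO and 19.4, 19.8 and 20.2 TPM in Chelator, again without overlap, and the spread was in the DMSO group. On the log2 scale it was at -0.34 (SE 0.11, DESeq2 adjusted p = 0.0105), or 0.793 of the DMSO level (95% interval 0.679 to 0.925). The third DMSO library weighed heavily here. It held the fewest estimated TOB2 counts of the DMSO libraries, 4849 against 5332 and 4987, but the most normalized counts, 6715 against 5349 and 4754. In that library 46.1% of TOB2 TPM was assigned to the short transcript TOB2-202 (777 bases), against 25.4% to 35.3% in the other 5. Both falls lost their adjusted p under 0.05 in edgeR's quasi-likelihood test (0.0641 for TOB1 and 0.052 for TOB2), without DMSO replicate 3 (0.15 and 0.103) and without Chelator replicate 2 (0.139 and 0.0768), and TOB1 did so also without Chelator replicate 3 (0.0516).

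**Figure D3:**
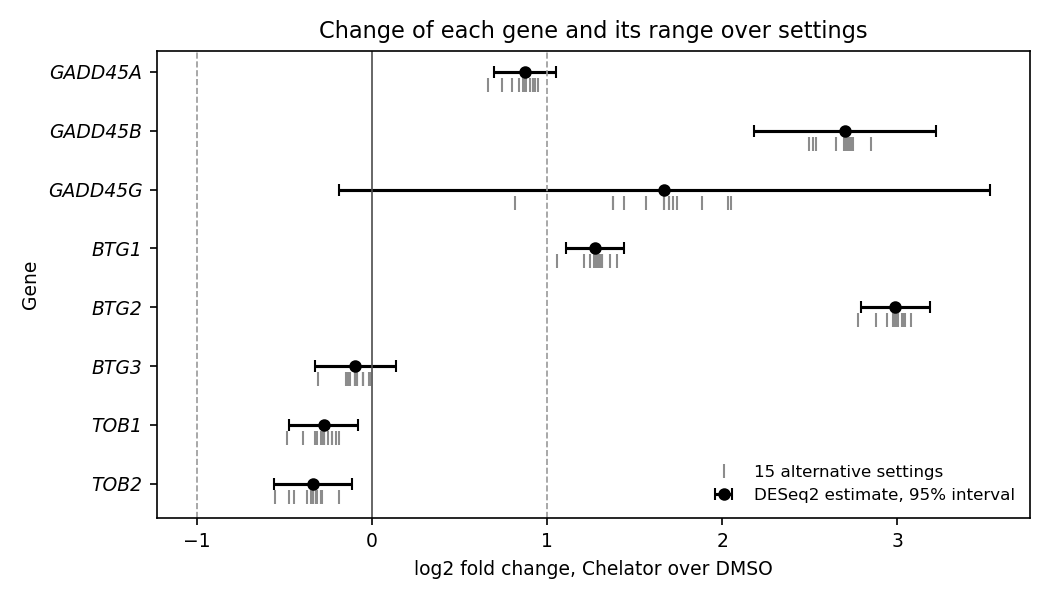
Log2 fold change of Chelator over DMSO for each gene, with the DESeq2 estimate and its 95% interval as a point with a bar, and a grey tick for each alternative setting (15, or 14 for GADD45G). Dashed lines mark an absolute log2 fold change of 1. BTG2, GADD45B and BTG1 have intervals to the right of 1, GADD45A straddles it, and the BTG3 and GADD45G intervals cross 0.

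The balance within pairs of paralogs was compared library by library. In the DMSO libraries BTG1 was 1.80, 2.02 and 1.83 times as abundant in TPM as BTG2, and in the Chelator libraries 0.554, 0.591 and 0.566 times. The order of the pair in summed TPM was therefore opposite in the groups, in all 6 libraries. It was not opposite for the main coding transcripts: BTG1-201 stood at 3.27, 3.24 and 4.01 TPM in DMSO, below BTG2-201 at 6.84, 7.52 and 7.36 TPM, and it was below BTG2-201 in every Chelator library too. The log2 ratio of BTG1 to BTG2 (0.1 TPM added to each) moved by -1.71, from 0.90 ± 0.09 to -0.81 ± 0.05 (SD, n = 3). That of GADD45A to GADD45B moved by -1.58, from 7.38 ± 0.34 to 5.80 ± 0.07, with no overlap between groups. The ratio of TOB1 to TOB2 was 0.42 ± 0.12 in DMSO and 0.47 ± 0.09 in Chelator, and its groups overlapped. An exact two-sided permutation test over the 20 assignments of the libraries gave p = 0.1 for BTG1 to BTG2 and for GADD45A to GADD45B, the smallest p that 3 against 3 allows, and p = 0.7 for TOB1 to TOB2 (0.15, 0.15 and 0.7 after Benjamini-Hochberg adjustment over the 3 ratios). With 1 TPM added, the GADD45 ratio moved by only -0.52, since GADD45B is low.

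The transcript that carried each gene was then examined. BTG2 has a coding transcript of 2729 bases, BTG2-201, and a shorter one of 1275 bases, BTG2-202, annotated as a target of nonsense-mediated decay. BTG2-202 held 21.1%, 7.09% and 15.4% of BTG2 TPM in DMSO and 3.89%, 8.29% and 5.17% in Chelator. The second DMSO library lay within the Chelator range. The mean share changed by -8.74 percentage points, by -5.45 points without DMSO replicate 1 and by -12.5 points without DMSO replicate 2. The change of transcript usage did not pass in edgeR's diffSpliceDGE test (adjusted p = 0.292) but did in limma's diffSplice (adjusted p = 0.0422), which called 26.7% of all genes tested. No member was called for usage in the main test, where 9.22% of 11938 genes were, and GADD45G could not be tested. In absolute terms BTG2-201 went from 7.24 ± 0.356 to 65.1 ± 3.53 TPM and BTG2-202 from 1.25 ± 0.633 to 3.97 ± 1.46 TPM (SD, n = 3).

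BTG1 TPM was assigned mostly to BTG1-203, a 1375-base transcript without a defined coding sequence, which held 77.7% ± 2.74 in DMSO and 72.9% ± 2.23 in Chelator. The coding transcript BTG1-201 went from 3.51 ± 0.438 to 10.6 ± 0.718 TPM. GADD45A-202, the coding transcript, held 90.2% ± 0.308 of GADD45A TPM in DMSO and 92.1% ± 1.43 in Chelator, and the retained-intron transcript GADD45A-203 held 4.19% ± 0.129 and 2.91% ± 0.389. TOB1-202 held 94.1% ± 1.75 of TOB1 TPM in DMSO and 89.2% ± 5.94 in Chelator. None of these genes passed the usage test.

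**Figure D4:**
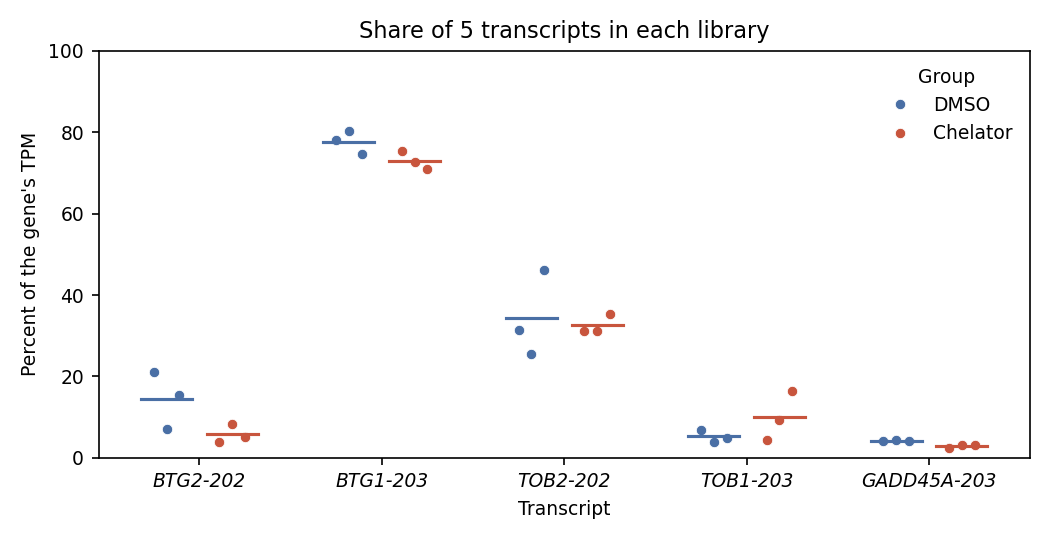
Percent of the gene's TPM (axis from 0 to 100) held by 5 minor or non-coding transcripts of the members, with a point for each library and a bar at each group mean. BTG2-202 is lower in Chelator except that DMSO replicate 2 falls among the Chelator points, and TOB2-202 stands apart in DMSO replicate 3 at 46.1%.

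Genes next to the members were read separately. BTG2-DT, a long noncoding RNA that runs away from BTG2 on the other strand (chr1:203298758-203305315), had estimated counts of 17, 18 and 6 in DMSO and 75, 94 and 71 in Chelator (log2 fold change 2.11, SE 0.46, DESeq2 adjusted p = 2.5e-05). It thus moved in the same direction as BTG2, at a far lower level. The noncoding neighbours that overlap BTG1, LINC01619 by 2637 bases (log2 fold change -0.74, SE 0.59, adjusted p = 0.353) and BTG1-DT by 274 bases (-0.27, SE 0.82, adjusted p = 0.848), did not pass, and neither did the pseudogene TOB2P1 (0.14, SE 0.24, adjusted p = 0.716). For BTG1-DT the direction depended on the length correction. Its estimated counts were 4, 5 and 10 in DMSO and 25, 24 and 27 in Chelator. In TPM the groups overlapped, at 0.085, 0.462 and 0.269 against 0.133, 0.306 and 0.198. TOB1-AS1, which overlaps TOB1 by 1300 bases on the other strand, had 78, 56 and 64 counts in DMSO and 133, 157 and 124 in Chelator (log2 fold change 1.05, SE 0.32, adjusted p = 0.0036), opposite in sign to TOB1. BTG3-AS1 overlaps BTG3 by 1250 bases and had a log2 fold change of 0.62 (SE 0.24, adjusted p = 0.0272). Whether the counting used strand was not given in the sources used here, so reads of a gene and its antisense partner may not be separated, and 8.81% of the 31-base words of TOB1 occur in other expressed transcripts. For GADD45A, GADD45B, GADD45G, BTG1 and BTG2 that share was 0%, where expressed means a transcript averaging at least 0.1 TPM. Some of the 4823 words of BTG1 also occur in transcripts below that level. As many as 384 are in a transcript of LINC01619 and 244 in a transcript of BTG1-DT.

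In each family the member with the largest absolute log2 fold change was taken, among those averaging at least 100 normalized counts, and the 3 genes with the most similar pattern were listed by Pearson's r of log2 normalized counts over the 6 libraries. For BTG2 they were ZYX (r = 0.9999), EGR3 (r = 0.9998) and its own paralog BTG1 (r = 0.9996). For GADD45B they were LBHD1 (r = 0.999), KAZN-AS1 (r = 0.998) and ZNF627 (r = 0.998), and for TOB2 they were DLD (r = 0.992), RAB7A (r = 0.991) and JKAMP (r = 0.989). The libraries form 2 groups, so r mostly reads the group difference, and r was above 0.95 with BTG2 for 1367 of 10340 genes, with GADD45B for 970 of 10341 and with TOB2 for 50 of 10340.

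Proteins that GADD45 binds were looked at next, over a list of 12 genes. Of these, 3 rose and 5 fell at an adjusted p under 0.05 and 4 did not pass, where 19.5% of all genes rose and 18.3% fell, and the median log2 fold change was 0.04 beside 0.02 for all genes. With GC content and length trends removed, 5 rose and 5 fell. The median was then -0.04, and it was also below 0 without the length offset (-0.02), without DMSO replicate 2 (-0.01) and with centring (-0.17, beside -0.20 for all genes). CDKN1A, which codes for the cell cycle inhibitor p21, rose from 3.54 ± 0.371 to 41.3 ± 2.06 TPM (log2 fold change 3.51, SE 0.11, adjusted p = 1.34e-221). PCNA fell, at a log2 fold change of -0.40 (SE 0.06, adjusted p = 3.4e-09). CDK1 was at 0.10 (SE 0.08, adjusted p = 0.343) and its partner CCNB1 at -0.01 (SE 0.07, adjusted p = 0.915), both with overlapping groups.

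In the relay from MAP3K4 to p38 and JNK, 3 of 15 genes rose, 8 fell and 4 did not pass, with a median of -0.31. Over all genes 19.5% rose, a share close to that of the list, and 18.3% fell. MAP3K4, the kinase that GADD45 proteins switch on, fell from 41.7 to 30.4 TPM (log2 fold change -0.48, SE 0.07, adjusted p = 1.23e-10). MAP2K7, the JNK kinase that GADD45B inhibits, was at 0.11 (SE 0.08, adjusted p = 0.342). The p38 isoform MAPK13 rose at a low level, from 0.112 to 0.896 TPM (log2 fold change 3.01, SE 0.37, adjusted p = 5.13e-15), and was the only gene of the list called.

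For the deadenylation genes, on which BTG and TOB proteins act, 1 of 18 rose, 6 fell and 11 did not pass, with a median of -0.12, beside 19.5% of all genes that rose and 18.3% that fell. The gene that rose was PAN2, a deadenylase subunit outside CCR4-NOT named here after its values were seen, at a log2 fold change of 0.996 (SE 0.16, adjusted p = 1.04e-08), just under the fold threshold in DESeq2 and past it in edgeR's quasi-likelihood test (1.04, adjusted p = 0.000705). CNOT7, a catalytic subunit, fell from 140 to 93.7 TPM (log2 fold change -0.61, SE 0.10, adjusted p = 8.98e-09), while its paralog CNOT8 was at 0.09 (SE 0.08, adjusted p = 0.439). PABPC1 was at -0.12 (SE 0.07, adjusted p = 0.182) and PRMT1, the arginine methyltransferase that BTG1 and BTG2 bind, at -0.11 (SE 0.08, adjusted p = 0.304). Centring on the mean, which lowers every gene, gave 13 falls among the 18, PABPC1 and PRMT1 included, and a list median of -0.33 beside -0.20 for all genes, of which 26.8% then passed with a fall.

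**Figure D5:**
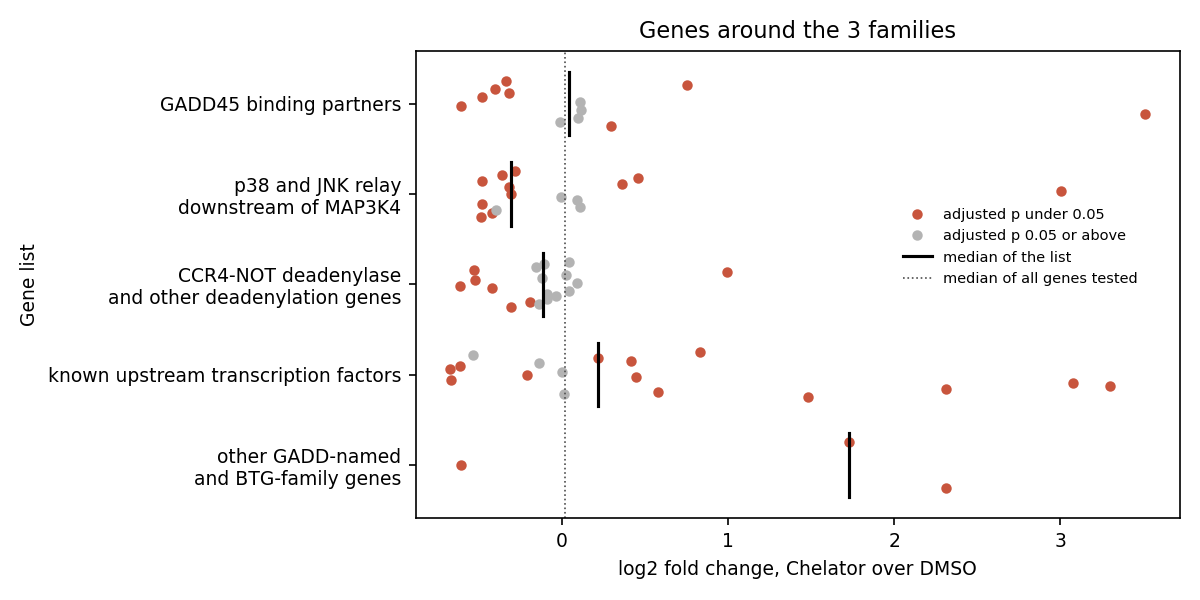
Log2 fold change of Chelator over DMSO for the genes of 5 lists around the families, with red points for an adjusted p under 0.05, grey points for the others, a black bar at each list's median and a dotted line at the median of all genes tested. CDKN1A stands at 3.51 in the top list, and EGR1 and EPAS1 are the rightmost upstream factors.

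Transcription factors known to act upstream of these families rose in 9 of 17 cases and fell in 4, with 4 that did not pass and a median of 0.22, beside 19.5% of all genes that rose and 18.3% that fell. The counts were 7 rises and 5 falls when libraries were centred on the mean, where 11.9% of all genes rose and 26.8% fell, and the median was -0.03 without the length offset. EGR1, an immediate early factor, had the largest rise, from 15.1 to 152 TPM (log2 fold change 3.30, SE 0.08). It was followed by EPAS1, the hypoxia factor HIF-2 alpha (3.08, SE 0.13, adjusted p = 6.57e-121), the stress factor DDIT3, also called GADD153 (2.32, SE 0.11, adjusted p = 1.28e-96), and ATF4, which drives the integrated stress response (1.48, SE 0.07, adjusted p = 1.3e-85). In the list of other GADD-named genes and BTG4, PPP1R15A, also called GADD34, rose as well (1.73, SE 0.08, adjusted p = 9.01e-103), and of the 3 genes tested there 2 rose and 1 fell.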

How the data were processed

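Per the labels, RNA was polyA-selected and sequenced on an Illumina instrument, and the authors quantified transcripts with Salmon 1.10.2. The deposited files give an estimated count per transcript, which need not be whole, and the deposited TPM, which the authors' tool scales by effective length to the same sum in each library. The transcript annotation, strand setting and read trimming were not given in the sources used here.

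Transcripts were matched to GENCODE release 44: of 252045, 251142 matched with their version, 470 under another version and 433 not at all. Estimated counts were summed per gene and rounded. Genes with a total above 10 were tested in DESeq2 1.42.0 (Wald test, median-ratio size factors, average transcript length as offset), with R 4.3.3. Normalized counts are corrected for both. Usage was tested with edgeR 4.0.16 (diffSpliceDGE, transcripts with at least 10 counts in 3 libraries, called at an adjusted p under 0.05 and a share change above 5 points) and alternatively with limma 3.58.1. Intervals are 95%. In data simulated for 25625 genes of this comparison, 99% of those changed by 1.5 on the log2 scale were recovered. The changed genes were a small random sample, drawn only from genes with higher counts. All genes were given the same variation between replicates, and no simulated library stood apart. Recovery was therefore not measured for low-count genes such as GADD45G or for the spread of the real libraries. Among pairs of libraries of a group, none agreed within sampling noise, and DMSO replicate 2 and Chelator replicate 1 lay farthest from their groups.

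The members, lists and tests were chosen with earlier results of these data known. Named genes were the 8 members, 10 listed partner genes and up to 4 called genes per list by size of change. Not all of these lists are independent, since MAP3K4, MAP2K7, MAPK14, DDIT3 and GADD45GIP1 each stand in more than 1. A planned list and gene are not reported here.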

Additional observations from a re-analysis of the deposited data

How the results depend on the processing

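No member changed direction under any setting tried. Leaving out the fold threshold raised the members called from 3 to 6, and the genes called in all from 2646 to 9260 of 24542. The 2 falls became 0 with edgeR's quasi-likelihood test and in the test against a log2 fold change of 1, where GADD45A (0.88), TOB1 (-0.27) and TOB2 (-0.34) did not pass, and 0 to 2 when libraries were left out in turn (log2 fold changes from -0.33 to -0.19 for TOB1 and from -0.44 to -0.19 for TOB2). With edgeR TOB1 was at -0.23 and TOB2 at -0.29. GADD45G passed without the length offset (2.05) and had no value under the filter of 10 counts in 3 libraries, and BTG3 passed with centring on the mean (-0.31). limma called 1 of the 7 members tested for usage, BTG2, at the same share change of -8.74 points, and 26.7% of all genes. That change was -12.5 to -5.45 points with a library left out. With 1 TPM added the log2 ratios moved by -0.52 (GADD45A to GADD45B) and -1.63 (BTG1 to BTG2), and the change of the TOB1 to TOB2 log2 ratio between groups was -0.11 from estimated counts and -0.0066 to 0.11 with a library left out (-0.0066 without DMSO replicate 3). Replicate numbers showed no clear pairing of the samples: same-numbered deviations correlated at -0.0036, 0.125 and 0.0939, and not every library correlated best with its own number. With 3 libraries in a group these values cannot settle whether the samples were paired. With the replicate number as a block, 3 members were called and 6 passed at any fold, as without it. In all, 2345 genes were then called, against 2646, and 8353 of 22535 passed at any fold. Of the lists, the falls among upstream factors were 4, against 2 with edgeR, TMM size factors, the replicate block or without DMSO replicate 3 and 1 without Chelator replicate 2 or 3. Depth limits GADD45G and, in DMSO, GADD45B.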
